A study of Mus musculus with 11 samples.

Results

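Of the 94963 accessible regions in the ATAC-seq list of MPC2 cells, 19526 lay in intron 2 or a later intron of a protein-coding gene. The rule for these later-intron regions used position and no measured value, and was set with earlier results of these data known. Each was more than 1 kb from every annotated transcript start, overlapped no annotated exon, and lay inside intron 2 or later of the longest protein-coding transcript of a gene without touching intron 1 of another gene's longest transcript (GENCODE vM21 on mm10). They made up 20.6% of the list (95% Wilson interval 20.3 to 20.8%), close in number to the 21537 promoter regions, which lay within 1 kb of a transcript start. ATAC-seq marks open chromatin as the places where the Tn5 transposase can insert sequencing adapters.

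MPC2 is a conditionally immortalised mouse mesenchymal stem cell (MSC) line, a single clone, that was grown as MSCs or differentiated for 3 weeks in osteogenic medium into osteocyte-like cells. The list pooled 11 samples. MSCs were given vehicle (DMSO) in 3 samples and FG-4592 in 3, and osteocytes were given vehicle in 2 samples and FG-4592 in 3. FG-4592 (Roxadustat) inhibits the HIF prolyl hydroxylases and was given at 50 uM for 48 hours. Each region carried a single value, read from its range and sum as a log2 CPM averaged over the samples. No header says whether the average was taken before or after the log. CPM is the count of Tn5 cuts after scaling for library size, and the single value is the level in what follows. The list held no value per sample, so the depth of each culture was unknown, replicate errors cannot be given from it and no group was compared with another. The study's own group comparisons of accessible regions were not used here. Intervals on shares and densities cover counting error only and treat regions as independent.

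Introns are transcribed and then spliced out, and they hold many of the enhancers of mammalian genes. An enhancer is a stretch of open DNA where transcription factors bind and act on a promoter, often over long distances and not always on the gene that contains it. The intron next to the start is known to be rich in regulatory elements. In mesenchymal and bone cells, enhancers are commonly bound by AP-1 (dimers of Fos and Jun proteins), TEAD factors (the DNA-binding partners of YAP and TAZ), RUNX factors (Runx2 is required for osteoblast formation) and C/EBP factors. CTCF is a zinc finger protein that anchors chromatin loops, and hypoxia-inducible factors bind the hypoxia response element (HRE).

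The following 3 sequences are the central 200 bp of the highest-level later-intron region that held AP-1, RUNX or CTCF, and they show what the motif counts below were made on. They are read from the plus strand of mm10 (GRCm38), with the motif in capitals on whichever strand it occurred. The AP-1 motif was TGACTCA or its complement TGAGTCA, TEAD was GGAATG or CATTCC, RUNX was TGTGGTT or AACCACA, and CTCF was CCACNAGGG on either strand.
Camk2d, intron 14 of 18, level 6.10, chr3:126831598-126831797, AP-1 in capitals: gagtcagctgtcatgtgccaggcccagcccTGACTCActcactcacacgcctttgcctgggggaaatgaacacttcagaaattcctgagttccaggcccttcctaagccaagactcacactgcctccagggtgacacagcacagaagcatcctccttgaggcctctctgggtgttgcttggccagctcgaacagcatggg
Snx29, intron 3 of 8, level 6.46, chr16:11456074-11456273, RUNX in capitals: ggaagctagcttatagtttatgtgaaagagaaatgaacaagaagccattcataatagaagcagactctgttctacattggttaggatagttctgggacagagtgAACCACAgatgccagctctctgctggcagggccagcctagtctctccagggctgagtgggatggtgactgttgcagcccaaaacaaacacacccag
Trim67, intron 8 of 9, level 5.65, chr8:124827011-124827210, CTCF in capitals: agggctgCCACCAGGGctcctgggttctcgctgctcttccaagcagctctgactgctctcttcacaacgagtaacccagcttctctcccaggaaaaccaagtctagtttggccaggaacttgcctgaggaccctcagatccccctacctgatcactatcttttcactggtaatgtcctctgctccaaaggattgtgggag

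A further 5 windows come from genes of oxygen sensing and of bone cells that are described at the end. They are the central 200 bp of the highest-level later-intron region of each gene, with AP-1, RUNX and HRE cores (ACGTG or GCGTG and their complements CACGT and CACGC) in capitals. Of the 17 such windows, 10 held none of these motifs, and the 4 shown first were picked for holding one. Mepe, one of those without, is shown because it consists of a short tandem repeat.
Gbe1, intron 12 of 13, level 3.88, chr16:70506483-70506682, AP-1 in capitals: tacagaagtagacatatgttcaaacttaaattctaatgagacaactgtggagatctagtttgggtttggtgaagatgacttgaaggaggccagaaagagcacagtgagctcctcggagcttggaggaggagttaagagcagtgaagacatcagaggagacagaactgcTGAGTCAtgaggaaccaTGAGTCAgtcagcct
Slc2a1, intron 2 of 9, level 4.28, chr4:119121307-119121506, HRE in capitals: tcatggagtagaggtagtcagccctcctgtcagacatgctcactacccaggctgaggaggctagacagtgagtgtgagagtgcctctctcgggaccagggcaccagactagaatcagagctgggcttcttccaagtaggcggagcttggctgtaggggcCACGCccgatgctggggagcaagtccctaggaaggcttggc
Epas1, intron 6 of 15, level 2.80, chr17:86812056-86812255, RUNX and HRE in capitals: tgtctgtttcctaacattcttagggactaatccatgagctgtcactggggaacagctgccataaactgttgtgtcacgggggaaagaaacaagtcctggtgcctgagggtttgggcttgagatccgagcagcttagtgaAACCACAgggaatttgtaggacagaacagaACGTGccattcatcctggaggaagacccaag
Tnfsf11, intron 2 of 4, level 3.73, chr14:78297408-78297607, RUNX in capitals: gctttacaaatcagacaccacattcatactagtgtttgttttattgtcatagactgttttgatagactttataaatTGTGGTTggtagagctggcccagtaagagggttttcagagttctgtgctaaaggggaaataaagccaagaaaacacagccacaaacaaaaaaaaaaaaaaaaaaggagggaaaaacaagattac
Mepe, intron 2 of 2, level 4.74, chr5:104331479-104331678, no motif: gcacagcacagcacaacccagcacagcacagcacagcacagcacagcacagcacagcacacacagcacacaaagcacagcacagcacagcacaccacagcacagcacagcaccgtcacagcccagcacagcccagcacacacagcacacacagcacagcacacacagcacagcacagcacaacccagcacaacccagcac

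Later-intron regions were narrow and of modest level. Their median width was 397 bp (quartiles 276 and 635 bp, range 200 to 2408 bp), and 1071 of them had the minimum width of 200 bp. Their median level was 1.82 (quartiles 1.09 and 2.75, range -0.96 to 6.85). In promoter regions the median width was 867 bp and the median level 3.89. In the top 10.0% of the list by level were 439 later-intron regions, 2.25%, near the 2.78% of intron-1 regions and the 2.5% of intergenic regions 10 to 100 kb from a start, against 35.2% of promoter regions. They held 11.5% of the summed CPM of the list while covering 9.68 Mb. Within the later-intron regions the level was uneven too, as the highest 1 in 10 by level carried 38.3% of their summed CPM.

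Width and level went together, with a Pearson r of 0.891 for log2 width and a Spearman rho of 0.900. Both are across the 19526 regions, which share the same libraries. Levels were therefore compared between classes within 20 bins of width that held about equal numbers of regions. In those bins the later-intron regions were 0.05 lower than intron-1 regions on the log2 scale, with a lower median in 16 of 19 bins that held enough regions of both. Without the bins the difference was -0.21, since intron-1 regions were wider, with a median of 423 bp. Later-intron regions were 0.04 higher than regions 10 to 100 kb from a start and outside genes, in 17 of 19 bins. Against intergenic regions 1 to 10 kb from a start they were 0.09 lower, in 19 of 19 bins, and against promoter regions of like width 0.25 lower, in 20 of 20 bins.

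In base composition the later-intron regions differed from the sequence around them. The central 200 bp had a median GC content of 48.5%, against 44.5% in 31132 windows of the same size 2 kb to either side, in later-intron sequence free of regions. Repeats, taken from the soft-masking of the genome, filled 12.9% of the central windows on average and 25.2% of the flanking windows. CpG dinucleotides were scarce. The median ratio of observed to expected CpG was 0.174, and 1.82% of later-intron regions reached 0.6, a ratio typical of CpG islands, against 49.4% of promoter regions. The same differences were present in the classes most like them. Intron-1 regions had a median GC content of 49.5% and 12.6% repeats, against 45 and 25.6% in their flanks, and intergenic regions 10 to 100 kb from a start had 48.5 and 14.1%, against 44.0 and 30.5%. The CpG ratio reached 0.6 in 2.20 and 3.47% of these classes.

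The density of later-intron regions was 33.3 per Mb (95% exact Poisson interval 32.9 to 33.8) over 586 Mb of eligible sequence, meaning known bases that could hold such a region under the rule. Intron 1 had 46.0 regions per Mb, so that later introns had 0.724 times its density (exact interval 0.706 to 0.742). Intergenic sequence more than 1 kb from a start had 22.8 per Mb, and later introns had 1.46 times that density (1.44 to 1.49). Soft-masked repeats made up 43.4% of that intergenic sequence and 29.4% of eligible later-intron sequence, and the part of repeats in the ratio was not tested. Later introns therefore lay between intron 1 and intergenic sequence.

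The same order was found at equal distance to a transcript start. Later introns had 37.8 regions per Mb at 1 to 2 kb from the nearest start and 38.6 per Mb at 5 to 10 kb, which is a nearly flat stretch. The density was 32.8 per Mb at 20 to 50 kb, 14.1 per Mb at 100 to 200 kb and 8.58 per Mb beyond 200 kb. At equal distance the later introns held 0.768 times the regions that intron-1 densities would give, and they were below intron 1 in all 7 distance bins with 20 or more regions of each. They held 1.31 times the regions that intergenic densities would give and were above intergenic sequence in all 8 bins.

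**Figure D1:**
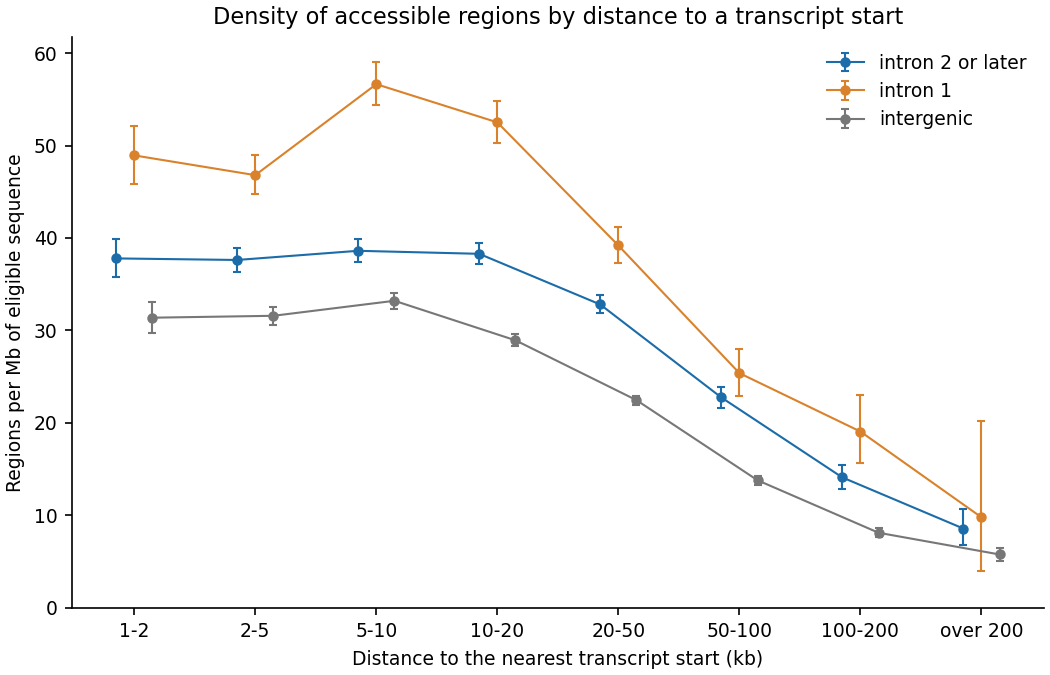
Regions per Mb of eligible sequence (vertical axis) by distance to the nearest annotated transcript start in kb (horizontal axis, unequal steps) for intron 2 or later, intron 1 and intergenic sequence. Points are densities and bars are 95% exact Poisson intervals. The later introns stay between the other two up to 200 kb, from 37.8 per Mb at 1 to 2 kb to 14.1 per Mb at 100 to 200 kb.

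Within genes, the density varied with the place of the intron. Intron 2 had 39.4 regions per Mb (38.3 to 40.6), intron 3 had 36.1, intron 4 had 32.9 and intron 5 had 28.7, while introns 6 to 10 had 33.2 and introns 21 and beyond had 25.4 (24.0 to 26.8). In the 14348 genes with at least 4 introns, the last intron had 33.0 per Mb (31.3 to 34.8) and intron 2 had 39.0 (37.8 to 40.2). Density differed by intron length as well. Introns of 5 to 20 kb had 40.1 regions per Mb and those of 20 to 50 kb had 39.3, whereas introns of 100 to 200 kb had 24.0 and introns over 200 kb had 12.0 per Mb. The higher density of intron 2 was present among introns of 20 to 100 kb, at 50.6 per Mb (48.5 to 52.7) against 27.5 (25.8 to 29.3) in introns 11 and beyond. Among introns over 100 kb the order was less regular, with 21.8 per Mb in intron 2 and 23.0 in introns 6 to 10.

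The density of later-intron regions varied with the distance from an exon. The midpoint of a region was 2640.5 bp from the nearest exon in the median. The density was 5.76 per Mb within 200 bp of an exon, 30.3 per Mb at 200 to 500 bp and 42.9 per Mb (41.7 to 44.1) at 2 to 5 kb. The rule lowers the values nearest to exons, since regions that overlap an exon, 6392 in the list, are left out, and with a median width of 397 bp this touches both of the nearest ranges. It was lower again in the depth of long introns, with 22.5 per Mb at 20 to 50 kb and 12.6 per Mb beyond 50 kb.

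**Figure D2:**
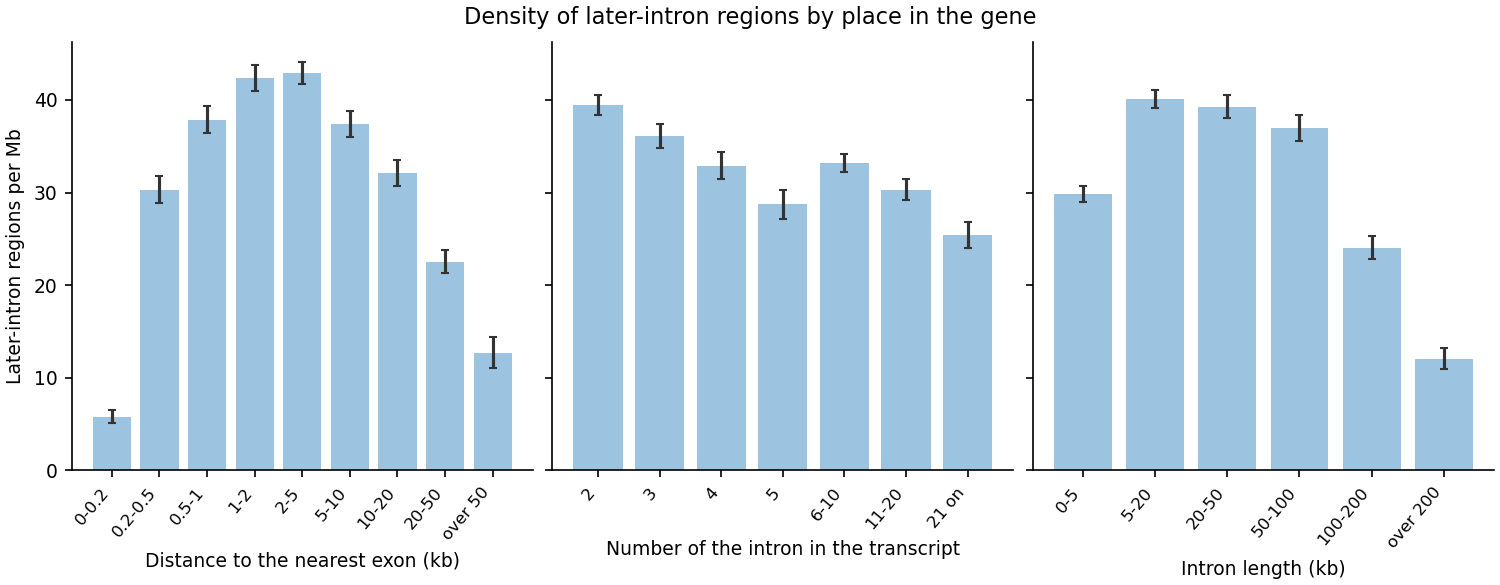
Later-intron regions per Mb of eligible sequence (vertical axis, shared by the panels) by distance to the nearest exon in kb, by number of the intron in the longest transcript, and by intron length in kb. Bars start at 0 and error bars are 95% exact Poisson intervals. The density is highest 1 to 5 kb from an exon, in intron 2, and in introns of 5 to 50 kb.

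Chromosomes differed. Chromosome 16 had 62.1 later-intron regions per Mb (58.7 to 65.6), against 22.2 on chromosome 3 and 45.2 on chromosome 11. Its later-intron regions were narrower and lower than those of the class as a whole, with a median width of 361 bp and a median level of 1.67. The intron-1 regions of chromosome 16 were dense too, at 66.4 per Mb, but those of chromosome 11 were denser, at 69.3 per Mb. The X chromosome had 7.61 per Mb (6.61 to 8.72) and a median level of 1.30. Without chromosome 16 the density of the class was 32.3 per Mb.

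Later-intron regions were concentrated in a minority of genes. Of 17101 coding genes with eligible later introns, 5889 (34.4%) held at least 1 region. A single region was found in 2616 genes, 2 to 4 regions in 2133 genes and 5 or more in 1140 genes. The 432 genes with 10 or more held 34.9% of the regions, and 149 regions lay in later introns of 2 genes. Among the 2682 genes with at least 50 kb of eligible sequence, 531 (19.8%) had no region.

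The gene with the most later-intron regions was Lpp, a LIM-domain protein of focal adhesions, with 62 regions in 516 kb of eligible sequence (120 per Mb) and a highest level of 5.69. Rad51b, a homologous recombination gene, had 56, and Ebf1, a transcription factor of marrow stromal, fat and B cells, had 44. Zbtb20, a zinc finger repressor, also had 44. The actin-binding genes Fhod3 and Palld had 41 each, the glypican Gpc6 had 40, and Mcc had 39. The chromatin remodelling gene Arid1b, the forkhead factor Foxp1, the kinase anchoring gene Pakap and Snx29, a sorting nexin, had 35 each. Prkca, a protein kinase C, and Thsd4 had 34 each, and Dnm3, Gm37240, Pard3b and Zfhx3 had 33 each. Ltbp1, which binds latent TGF-beta in the matrix, and the receptor phosphatase Ptprm had 32 each. All 20 had a promoter region, and 3 of them (Lpp, Zbtb20 and Snx29) are on chromosome 16.

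A count favours long genes, so genes with at least 50 kb of eligible sequence were also ordered by density. Kalrn had the most, with 15 regions at 218 per Mb, followed by Xxylt1 with 19 at 211 per Mb, and both are on chromosome 16. Fgf7, a fibroblast growth factor made by mesenchymal cells, had 11 regions at 207 per Mb. Smad6, an inhibitor of BMP signalling, had 12 at 207 per Mb, and Lrp5, a Wnt co-receptor that controls bone mass, had 13 at 205 per Mb. Rnf144a had 202 per Mb, Morn1 and Cdh1 had 197, Syne3 had 192 and Mgll had 190. Cdh1, which encodes the epithelial cadherin, had 12 later-intron regions and no promoter region. At the other end, the longest genes without any later-intron region were Lrp1b (1687 kb eligible), Cntn5 (964 kb), Nell1 (868 kb), Grm8 (838 kb) and Dpyd (809 kb). Of these, Cntn5 and Nell1 also lacked a promoter region, while Lrp1b, Dpyd and Grm8 had promoter levels of 0.47, 3.11 and 4.05.

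A single intron of Rad51b held 37 later-intron regions, more than any other intron. It was intron 7 of 10, 330.4 kb long, at chr12:79327405-79657823. The levels of its regions ran from 0.24 to 4.63 with a median of 2.83, above the median of 1.82 over the class, and their median width was 612 bp. Of the 37 regions, 4 held AP-1, 5 TEAD, 5 RUNX and 1 CTCF in the central 200 bp, counts that are near the shares over all later-intron regions (14.0, 15.5, 10.4 and 2.29%). Its density was 113 per Mb of eligible sequence, whereas introns over 200 kb as a group had 12.0 per Mb.

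The highest single level among later-intron regions was 6.85, in intron 4 of 19 of Arid1b (chr17:5189507-5190677). Regions in intron 2 of Foxk1 (6.84), intron 11 of Mcc (6.68), intron 7 of Gpc6 (6.52), intron 19 of Trpm3 (6.52), intron 3 of Snx29 (6.46), intron 3 of Hmga2 (6.39), intron 2 of Chd9 (6.38) and intron 2 of Bahcc1 (6.25) followed. Adjacent levels in this order are too close to rank without replicates. The 10 highest regions, 9 of them named above, were 1171 to 1911 bp wide and 5.75 to 144 kb from the nearest annotated start, and none held AP-1 or CTCF in its central 200 bp. The widest later-intron regions were in Nfix (2408 bp), Rerg (2360 bp), Itpr1 (2343 bp), Atg7 (2314 bp) and Fgfr1 (2265 bp), with levels between 5.00 and 5.86.

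Genes with an accessible promoter had more later-intron regions. The 5050 genes without a promoter region had 14.2 later-intron regions per Mb (13.6 to 14.8). Genes with one were split into 4 groups of equal size by promoter level. The densities were 27.1 per Mb in the lowest group, 43.0 in the next, 46.9 in the one above and 48.7 (47.4 to 50.1) in the highest. Most of the step was between the lowest group and the next, at a promoter level of 3.96. The same order was not complete for single long genes, where the median density was 5.31 per Mb with no promoter region and 18.4, 39.8, 43.9 and 41.2 per Mb in the 4 groups. Regions in an intron and at a promoter share the same libraries, and no expression value entered this comparison.

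The gene lists differed widely in density. The densities were set against all other coding genes, and over all genes the density was 33.4 per Mb. All other genes include those without a promoter region, which had 14.2 per Mb. A promoter region was present in all 26 listed transcription factors, all 20 adhesion genes and all 26 hypoxia genes. The counts were 18 of 20 for matrix, 23 of 24 for receptors and 11 of 14 for bone cell markers. They were 13 of 24 for neuronal, 8 of 12 for striated muscle and 8 of 15 for blood cell genes. No list was compared with genes of like promoter level or intron length. Actin cytoskeleton and adhesion genes had the highest, 110 per Mb (95.5 to 125), 3.30 times that of other genes (exact interval 2.88 to 3.78). Of the 20 genes of that list, 18 held a region and were above the density of all genes. They were led by Lpp, Palld (41 regions) and the tensin Tns3 (22 regions), and Parva and Tln1 had none. A single region is enough for this in a gene with little eligible sequence, such as Actn1 (29.5 kb, 33.9 per Mb). Mesenchymal and osteogenic transcription factors had 84.2 per Mb, 2.55 times that of other genes (2.28 to 2.83), led by Ebf1, Foxp1 and Glis3 (31 regions). Runx1 had 28 regions and Runx2 had 15. In the same list Bnc2, with 263 kb of eligible sequence, had none, and neither did Fosl2, Nfic and Prrx1, whose later introns are short.

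Matrix genes had 81.6 per Mb, 2.45 times that of other genes (2.05 to 2.90). Ltbp1 led with 32, the procollagen peptidase Adamts2 had 23 and the fibrillin Fbn1 had 19. Several major matrix genes had no later-intron region, namely Col11a1, Col1a1, Col3a1, Fn1 and Postn. Of these Col11a1 had 149 kb of eligible sequence. Growth factor and hormone receptors had 78.4 per Mb, 2.35 times that of other genes (1.95 to 2.81), led by the TGF-beta co-receptor Tgfbr3 (19), the IGF-1 receptor Igf1r (17) and Lrp5 (13), while Bmpr1a, Il6st, Lepr, Pdgfra and Ror2 had none.

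The lists of other tissues were lower or not distinct from other genes. The neuronal list had 5.64 later-intron regions per Mb (4.61 to 6.84), 0.164 times that of other genes (0.134 to 0.199), and 0 of its 24 genes reached the density of all genes. These 24 genes hold 18.4 Mb of eligible sequence, and introns over 200 kb had 12.0 regions per Mb over all genes. The part of intron length in the neuronal ratio was not tested. Most numerous in this list were Rbfox1 (29 regions), Dlg2 (13) and Cntnap2 (10), and Gria2, Grm5, Lrp1b and Ntm had none. The densest, Lsamp at 32.0 and Rbfox1 at 31.8 per Mb, are both on chromosome 16. Striated muscle genes had 14.4 per Mb, 0.428 times that of other genes (0.327 to 0.551), led by the calcium channel Cacna1c (24), Ldb3 (10) and Myom1 (7), and the titin gene Ttn had none. This low density was not shared by the whole list, as 5 of its 12 genes were above the density of all genes. Of its 4.18 Mb of eligible sequence, 2024 kb belong to Dmd on the X chromosome, which had 1 region (0.494 per Mb). The ratio without Dmd was not computed. Blood cell genes had 31.5 per Mb, 0.941 times that of other genes with an interval of 0.742 to 1.18 that spans 1. This ratio was 0.762 (0.575 to 0.990) without Bach2 and 1.12 (0.772 to 1.56) with regions at least 500 bp wide, on the other side of 1. Their regions were uneven, with 21 in Bach2, 18 in Elmo1 and 13 in Arhgap15, and none in Cd247 and Skap1.

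**Figure D3:**
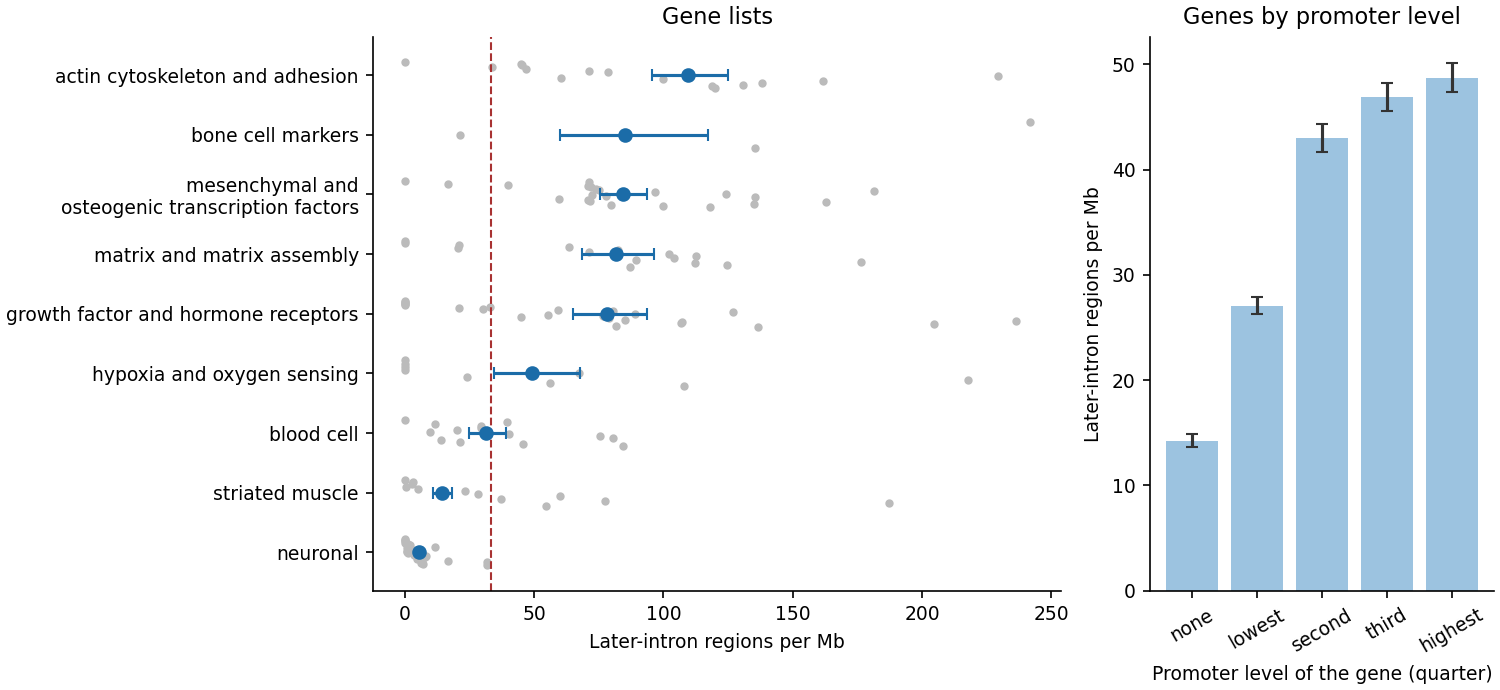
Left, later-intron regions per Mb of eligible sequence for each gene list, with 95% exact Poisson intervals (blue) and single genes of the list with at least 20 kb of eligible sequence (grey); the dashed line is the density over all genes, 33.4 per Mb. Right, the density in genes without a promoter region and in 4 groups of genes by promoter level, as bars from 0 with the same intervals. The 4 lists of mesenchymal, matrix, adhesion and receptor genes and the bone cell markers lie above the line and the neuronal and striated muscle lists below it.

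Hypoxia and oxygen sensing genes had 49.2 later-intron regions per Mb (34.6 to 67.8), 1.47 times that of other genes (1.04 to 2.03). The 37 regions lay in 8 of 26 genes, and 34.4% of all coding genes with eligible later introns held a region. All 26 hypoxia genes had a promoter region. By promoter level, genes with one had 27.1, 43.0, 46.9 and 48.7 per Mb in 4 groups. Without Arnt2, the gene of the list with the most regions, the ratio was 1.20 (0.782 to 1.75), and with regions at least 500 bp wide it was 2.78 (1.82 to 4.08). Arnt2, a partner of HIF alpha subunits, had 11, with levels from 0.87 to 4.03. Mthfd1l, a mitochondrial folate enzyme, had 10 from 0.67 to 4.42, and Ndrg1, a stress-responsive gene, had 5 from 0.42 to 2.33. The glycogen branching enzyme gene Gbe1 had 4, of which the highest, at 3.88, held 2 AP-1 sites in the window shown above. Another of the Gbe1 regions, with a level of 2.28, was 100% repeat in its central 200 bp.

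The glucose transporter gene Slc2a1 (Glut1) had 2 regions, both in intron 2, with levels of 4.28 and 4.08. The angiogenic factor gene Vegfa had a region of level 5.02 in intron 2, the highest of the list, and a second of 1.40 in intron 6. Epas1, which encodes HIF-2 alpha, had 2 in intron 6 with levels of 2.80 and 2.67, and the collagen prolyl hydroxylase gene P4ha2 had 1 of 3.82. The other 18 genes had no later-intron region, among them the HIF prolyl hydroxylases Egln1, Egln2 and Egln3, Hif1a, Vhl and Hif1an. The rest were Arnt, Ero1l, Gys1, Hif3a, Kdm3a, Ldha, P4ha1, Pdk1, Pfkl, Pgk1, Tfrc and Vldlr. Together these 18 genes have 220 kb of eligible sequence, in which the density of all genes would give 7.35 regions. Egln1, Egln2 and Egln3 have 4.692, 3.255 and 4.674 kb of it, too little for a region in each to be likely at that density.

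Of the 37 regions at hypoxia genes, 6 (16.2%, 95% Wilson interval 7.65 to 31.1%) held an HRE core in the central 200 bp, against 19.8% of all later-intron regions and 16.9% of flanking windows. The core is short and frequent, so a share of this size is near that of sequence at large. In the windows of Slc2a1 and Epas1 shown above there was 1 core each. AP-1 was held by 3 of the 37 regions (8.11%, 2.80 to 21.3%) and RUNX by 4 (10.8%, 4.29 to 24.7%), against 14.0 and 10.4% of all later-intron regions, and 1 of the 4 with RUNX also held an HRE core.

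The bone cell markers had 85.2 later-intron regions per Mb (60.0 to 117), 2.55 times that of other genes (1.80 to 3.52). Of their 14 genes with later introns, 9 held a region, against 34.4% of all coding genes with eligible later introns. There were 37 regions in all. Runx2, the osteoblast transcription factor, held 15 of them with levels from 0.37 to 3.71, and without it the ratio was 2.04 (1.28 to 3.09). Over all 37 regions AP-1 was found in 7 (18.9%, 9.48 to 34.2%), an interval that includes the 14.0% of all later-intron regions. Tnfsf11 (RANKL, which drives osteoclast formation) had 5 regions of levels 0.73 to 3.73, and the 2 highest, 3.73 and 3.44 in intron 2, each held a RUNX site. Over all 37 regions of the bone cell markers RUNX was found in 4 (10.8%, 4.29 to 24.7%), near the 10.4% of all later-intron regions. Phex, the gene mutated in X-linked hypophosphatemia, had 5 with levels from 0.39 to 4.08. The alkaline phosphatase gene Alpl had 3, at 4.55 in intron 7, 4.11 in intron 9 and 2.02 in intron 6.

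The osteocyte gene Mepe had 3 regions in intron 2, at 4.74, 3.12 and 2.29. The highest was 1791 bp wide and 93.0% repeat in its central 200 bp, the tandem repeat printed above, and how uniquely reads could be placed there was not tested, although the authors discarded reads of low mapping quality. Dmp1, also an osteocyte gene, had only weak regions in intron 5, with levels of 1.09 and 0.01. Pth1r, the parathyroid hormone receptor gene, had 2 at 3.42 and 3.41, Tnfrsf11b (osteoprotegerin) had 1 at 2.40 and Ibsp had 1 at 1.34. Fgf23, Col1a1, Spp1, Pdpn and Bglap had no later-intron region, within 18.2 kb of eligible sequence in all, and Sp7 and Sost have no later intron. In those 18.2 kb the density of all genes would give 0.607 regions. Because the list pools MSCs and osteocytes, it does not tell in which of these cells the regions were open.

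**Figure D4:**
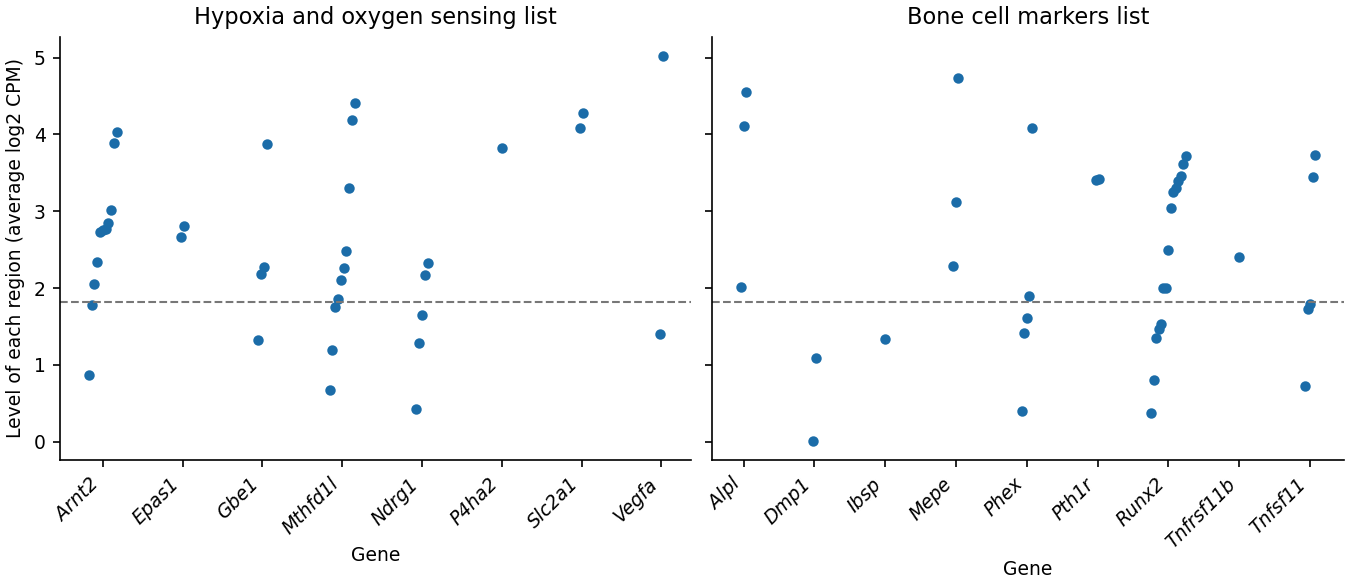
Level of every later-intron region, as average log2 CPM over all samples (vertical axis), at the genes of the hypoxia and oxygen sensing list (left) and of the bone cell markers (right) that held any. Each point is a region and points of a gene are spread sideways in order of level; the dashed line is the median of all later-intron regions, 1.82. The highest are in Vegfa (5.02) and Mepe (4.74).

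Of the motifs searched, AP-1 was the most enriched over the flanking sequence. It was found in the central 200 bp of 2743 later-intron regions, 14.0% (13.6 to 14.5%), and in 3.18% of flanking windows, a ratio of 4.41. CTCF followed at 2.29% against 0.614%, a ratio of 3.73, and RUNX at 10.4% against 4.93%, a ratio of 2.11. The GC box GGGCGGG was found at 2.38% against 1.17%, a ratio of 2.04. NFI (TTGGCA), TEAD and the E-box CAGCTG had ratios of 1.70, 1.47 and 1.69, at 16.1, 15.5 and 15.1% of regions. The ETS motif CCGGAAG, at 0.871% against 0.546%, had a ratio of 1.59. C/EBP (TTGCNNAA) had a ratio of 1.33, the glucocorticoid receptor half-site pair ACANNNTGT 1.18 and the HRE core 1.17. The homeobox core TAATTA went the other way, at 4.04% against 5.94%, a ratio of 0.680. In all, 11 of 13 motifs were more frequent than in flanks with an interval of the difference above 0, 1 was less frequent, and the interval of the CRE motif TGACGTCA spanned 0. The flanks were poorer in GC and richer in repeats (values above), and the part of composition in these ratios was not tested.

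Most motifs were as frequent in later introns as in other places far from promoters. Against intron-1 regions the interval of the difference spanned 0 for 10 of 13 motifs, AP-1 included (14.0 against 13.9%, difference 0.14 points, -0.73 to 0.99). CTCF was more frequent in later introns, at 2.29 against 1.70% (difference 0.592 points, 0.245 to 0.920), and higher on 16 of 20 chromosomes. ACANNNTGT was also more frequent, at 7.83 against 6.60% (difference 1.22 points, 0.581 to 1.84), again on 16 of 20 chromosomes. The ETS motif CCGGAAG was less frequent, at 0.871 against 1.21% (difference -0.340 points, -0.612 to -0.0928).

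Against intergenic regions 10 to 100 kb from a start, RUNX was more frequent in later introns (10.4 against 9.48%, difference 0.894 points, 0.294 to 1.49), and C/EBP was less frequent (10.6 against 11.9%, difference -1.30 points, -1.94 to -0.672). The HRE core differed by 0.973 points (0.182 to 1.76) and ETS by -0.269 points (-0.472 to -0.0696). The intervals are not adjusted for the 13 motifs compared in each case. Promoters differed in every motif. They held the GC box GGGCGGG in 21.4% and the HRE core in 39.4%, against 2.38 and 19.8% in later introns, and AP-1 in 6.05%.

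**Figure D5:**
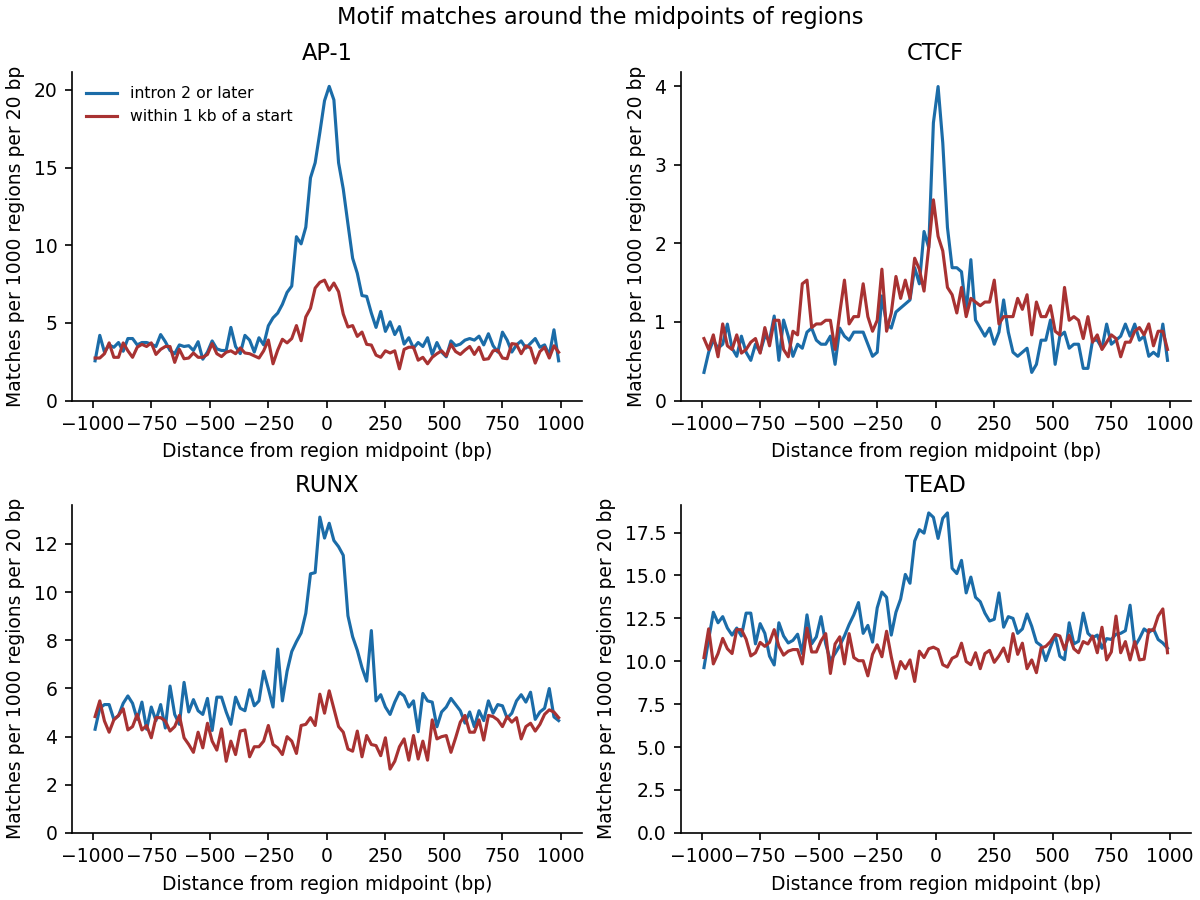
Matches to 4 motifs per 1000 regions in bins of 20 bp (vertical axis, from 0) by distance from the region midpoint in bp (horizontal axis), for later-intron regions and for promoter regions. In later introns AP-1 is 5.57 times and CTCF 5.25 times as frequent at the centre as at the edges of the plot, against 2.36 and 3.00 times in promoter regions. Intergenic regions 10 to 100 kb from a start, not plotted, have 5.55 and 5.29 times.

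The matches were centred on the regions. Per 20 bp and 1000 later-intron regions there were 19.8 AP-1 matches at the midpoint and 3.55 at the edges of a window reaching 1000 bp to either side, 5.57 times as many. CTCF was 5.25 times, RUNX 2.42 times and TEAD 1.52 times as frequent at the centre as at the edges. These values were close to those of intron-1 regions (AP-1 5.47, RUNX 2.55, TEAD 1.73) and of intergenic regions 10 to 100 kb from a start (AP-1 5.55, CTCF 5.29, RUNX 2.40, TEAD 1.54), while CTCF in intron-1 regions was 3.21 times. TEAD matches in promoter regions were 0.967 times as frequent at the centre.

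Regions with an AP-1 site had higher levels than others of the same width, by 0.22 on the log2 scale and in 10 of 10 width bins. Those with CTCF were higher by 0.24, also in 10 of 10 bins, although they were narrower, with a median of 342 bp against 399 bp without it. Regions with the GC box were higher by 0.16, in 8 of 10 bins, and those with the homeobox core differed by -0.08, higher in 1 of 10 bins. The differences were 0.03 for TEAD, -0.01 for RUNX, 0.01 for NFI, -0.01 for C/EBP, 0.02 for the glucocorticoid receptor motif, 0.04 for the HRE core and 0.03 for the E-box. For ETS the difference was 0.06 over only 3 bins, and CRE sites were too few for any bin. Medians of level were ordered by the number of AP-1 sites. The median was 1.80 in the 16783 regions without a site, 1.95 in the 2501 with 1, 2.03 in the 223 with 2 and 2.10 in the 19 with 3 or more.

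Along the order of levels, cut into 10 equal groups, AP-1 was found in 7.43% of the lowest group (6.35 to 8.68%) and in 13.0 to 15.9% of the others. CTCF had a different course, from 1.02% in the lowest group to 3.84% in the sixth and 1.38% in the highest. CTCF was found in 1.75% of regions with AP-1 and 2.38% of those without (difference -0.63 points, -1.12 to -0.02, an interval that ends close to 0). C/EBP too was rarer beside AP-1, at 9.22 against 10.8% (difference -1.60 points, -2.74 to -0.37). TEAD was found in 16.7% of regions with AP-1 and 15.3% of those without, a difference of 1.40 points whose interval of -0.06 to 2.94 spans 0. The intervals also spanned 0 for RUNX beside AP-1 (-1.58 to 0.857 points), the glucocorticoid receptor motif beside AP-1 (-1.14 to 1.02) and RUNX beside TEAD (-2.11 to 0.186). None of these intervals is adjusted for the number of pairs compared.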

How the data were processed

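ATAC-seq was performed in MPC2 cells by the study. Per the labels and the methods, the authors trimmed reads, aligned them to mm10 with Bowtie2, removed duplicates with Picard 2.17.8, discarded mitochondrial reads and those of low mapping quality, called peaks with MACS2 2.2.7.1, merged peaks of several samples, removed blacklisted regions, and counted Tn5 cuts per region for edgeR 3.24.3. A shift for the Tn5 offset was not given in the sources used here, and merging makes widths depend on how many libraries contributed. The deposited list gave chromosome, start, end and 1 log2 value per region with no header. This deposited log2 value was taken for an average CPM over all samples, since 460 regions lay below 0 and the values, once unlogged, had a sum of 1012760. No column belonged to a single sample (0 such columns), so the planned tests between groups were not run and the depth per sample is unknown. The remaining columns, strand and row order were not used, nor were the study's supplementary lists of regions that differed between groups, which hold the authors' own fold changes and FDR values.

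Coordinates are mm10, printed 1-based, and 0 regions ran past a chromosome end of GRCm38. The longest transcript was taken by spliced length. Motifs were counted on both strands in the central 200 bp, and flanks were windows of that size 2 kb away in eligible sequence free of regions. Shares have Wilson, differences of shares Newcombe, densities exact Poisson and their ratios exact conditional intervals, each at 95%. Level comparisons averaged median differences over 20 width bins (10 for motifs) with at least 20 regions on each side. Members, the 9 gene lists and the 13 motifs were chosen with earlier results of these data known. Named genes were the 20 with most regions, the 10 densest with at least 50 kb, the 5 longest without a region, and in each list the 3 with most regions and those without. Named regions were the 10 highest, the 5 widest, the fullest intron, the highest with each of 4 motifs, and all at hypoxia and bone genes. No sequence from chromosome 18 was printed, and 1 named region is not reported here. Alternatives were wider regions, joined regions, autosomes, 2 kb from starts, transcripts by genomic span, other bins, motif letters and flanks, and lists without their fullest gene. Leaving out chromosome 16 was chosen after seeing the data. Scripts were tested on simulated data. Python 3.11.15, numpy 2.4.6, pandas 2.3.3, scipy 1.17.1 and matplotlib 3.10.9 were used.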

Additional observations from a re-analysis of the deposited data

How the results depend on the processing

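No paired analysis was possible because single samples have no values, and leaving out replicates was not run for the same reason. Of 74 alternative values, 48 moved by less than their counting interval, or by less than 1.5 times for the number of regions. The blood cell ratio, whose interval spans 1, was the one value to change side. Regions at least 500 bp wide were 7258 in number, 16.8% of such regions, with a median width of 734 bp, a median level of 3.04, a density of 12.4 per Mb, an AP-1 share of 13.1% and a ratio to flanks of 3.84. Fewer and wider regions enter there by construction. With that limit the ratios to other genes were 3.18 for mesenchymal transcription factors, 2.93 for matrix, 3.01 for receptors, 2.78 for hypoxia, 0.110 for neuronal and 1.12 for blood cell genes (0.941 over all regions), and the cause was not tested. The density was 34.7 per Mb on autosomes and 32.3 per Mb without chromosome 16, and later-intron regions were 19.1% of the list at 2 kb from starts and 21.97% with the longest genomic span. Joining regions within 500 bp, with their CPM summed, gave a median width of 418 bp, a median level of 1.88, 31.1 per Mb and an AP-1 ratio of 4.20. AP-1 was in 17.8% of regions as TGANTCA and in 23.5% over whole regions, which offer more sequence. The level difference to intron 1 was -0.21 without width bins. The neuronal ratio was 0.125 without Rbfox1 and 0.115 without chromosome 16, and that of striated muscle 0.287 without Cacna1c. Striated muscle without Dmd, its longest gene, was not computed. Without Bach2 the blood cell ratio of 0.762 had an interval below 1, and without Arnt2 the hypoxia ratio of 1.20 spanned 1. The depth per sample is unknown, so how many weak regions deeper data would add cannot be said.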
